A study of Drosophila melanogaster with 164 samples.

Results

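The genes described here encode the proteins of the cytoplasmic ribosome of Drosophila melanogaster. They were chosen by name, as all genes whose symbol starts with RpL (large subunit) or RpS (small subunit) together with sta, which encodes the small-subunit protein RpSA. This rule took 86 of the 7414 genes of the deposited count table, 35 of the small and 51 of the large subunit. Another 7 genes with such names in the annotation, mostly second copies (RpL10Aa, RpL37-2, RpL7-like, RpS10a, RpS19b, RpS28-like and RpS28a), had no row in the table and were not analysed here. The 86 genes lie on every major chromosome arm, with 17 on 2L, 20 on 2R, 14 on 3L, 19 on 3R, 15 on X and 1 on chromosome 4. The lowest count of any of them in any library was 18, and all 86 entered every test.

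A ribosome holds 1 copy of nearly every one of its proteins, and cells make the proteins in matched amounts, largely by translating their messenger RNAs together when the growth-regulating TOR kinase is active. In Drosophila most of the genes are known as Minute loci, in which loss of 1 copy slows development and shortens the bristles. Growing larval tissues make ribosomes at a high rate, whereas most tissues of the adult no longer grow, with the germ line and the gut as exceptions. A few ribosomal proteins are encoded by a pair of genes, and one gene of such a pair is often used mainly in testis or ovary.

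The study asked how far genetic differences in gene expression are shared between life stages that are separated by metamorphosis. Polyadenylated RNA of whole animals was sequenced, with a stranded kit, from adults and larvae of 41 lines of the Drosophila Genetic Reference Panel (DGRP). These are inbred lines that were derived from a wild population and chosen to carry no chromosomal inversion. Adults were collected within 48 h of first emergence in a vial and matured for 4 days, and the labels give no sex. Larvae were unsexed, feeding third-instar animals. Both stages were reared at 25°C on the same medium, and each line had 2 replicates per stage. A sample joined the animals of a pair of vials, with a median of 17 adults or 20 larvae and a range from 2 to 31 animals. The comparison is therefore between pools of whole bodies whose sex ratio is not known, and a difference in level per cell cannot be told apart from a difference in the share of each tissue.

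Of 82 adult and 82 larval libraries, 82 and 80 were used. Replicate 1 of DGRP787 and replicate 2 of DGRP491 had the same count for every gene in larvae, so neither could be assigned and both were left out. Library totals over the 7414 genes ran from 2748964 to 20421026 with a median of 8670311 in adults, and from 2407244 to 26429404 with a median of 10533564 in larvae. As a check of the labels, the larval libraries were compared with adult line means over 1565 other genes with large line differences in adults (heritability of at least 0.6). The labelled line ranked first in 74 of 80 larval libraries, where r with that line had a median of 0.425 (across genes, which share libraries and are no replicates). Both DGRP235 libraries and DGRP367 replicate 1 fell just behind another line. In 3 further libraries another line led by a wide margin. They were DGRP882 replicate 2 (r of 0.437 with DGRP911 and -0.019 with its own line), DGRP897 replicate 2 (0.544 with DGRP882 and 0.074 with its own) and DGRP911 replicate 2 (0.272 with DGRP897 and -0.041 with its own). Counts of larval line calls and of cross-stage calls are given with and without those 3 libraries. Larval heritabilities, spreads and extreme lines include them. Adult and larval libraries were sequenced in separate pools, 7 for adults and 12 for larvae, so stage and sequencing pool cannot be told apart. Among 12 ovary and female markers only CycB was in the table, and no fat-body marker was, since the table holds only genes with at least 11 counts in every library.

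The ribosomal protein genes together took a smaller share of the transcriptome in adults than in larvae in every line. They held 3.78% to 8.77% of a library's counts in adults, with a median of 6.41%, against 10.0% to 16.8% in larvae, with a median of 12.2%. The highest adult library lay below the lowest larval library, so the stages did not overlap. Within lines the larval share was 1.90 times the adult share at the median, from 1.55 times in DGRP832 to 2.62 times in DGRP235. Means of sequencing pools ran from 5.73% to 7.02% in adults and from 11.2% to 13.6% in larvae. Each pool held a single stage and the libraries did not overlap, so the pool means could not overlap either.

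**Figure D1:**
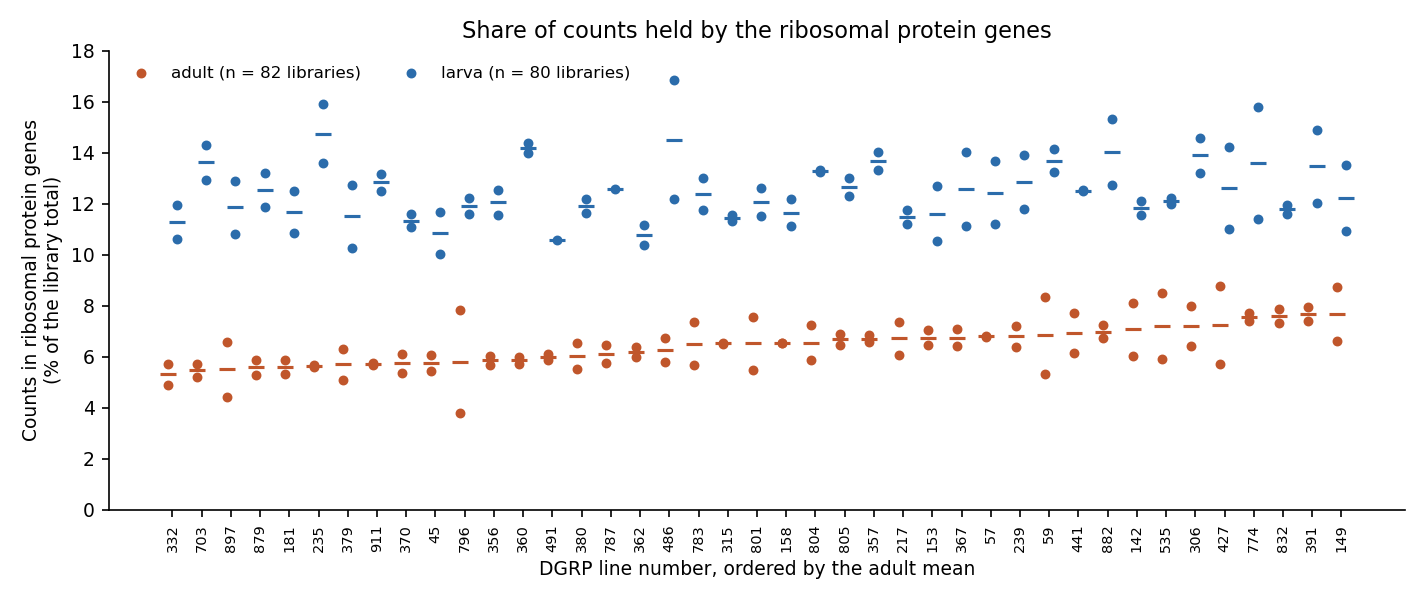
Share of each library's counts (%) that fell in the 86 ribosomal protein genes, with 1 point per library, adults and larvae in separate colours, and the 41 lines ordered along the horizontal axis by their adult mean. All 82 adult libraries lie at or below 8.77%, and all 80 larval libraries lie at or above 10.0%.

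Gene by gene, 84 of the 86 were lower in adults and 2 were higher, at a Benjamini-Hochberg adjusted p under 0.05 (edgeR quasi-likelihood F test, blocked by line). Over all 7414 genes, 47.8% were lower and 44.9% higher by the same rule, so most genes of the table differed between the stages in one direction or the other. The median log2 fold change, adult minus larva, was -1.21 for the ribosomal protein genes and -0.03 for all genes. A change of over 2-fold (glmTreat in edgeR) was called for 64 genes that were lower in adults, where the background was 11.7% of all genes, and for 1 that was higher, where the background was 15%. Scaled to the table total, 23 genes were called lower by over 2-fold in place of 64. The share of all genes past 2-fold under that scaling is not given here. The scaling moved the median to 0.22 for all genes and to -0.96 for the ribosomal protein genes. It left 36.3% of all genes lower in adults at an adjusted p under 0.05. In 12 of the 86, every adult library lay below every larval library, a pattern found in 1.87% of all genes. Among these 12 were RpS3A, RpS5a, RpS15, RpS18, RpS23, RpS27A and RpS28b of the small subunit and RpL9, RpL12 and RpL32 of the large. The level was lower in adults in all 41 lines for 80 of the 86 genes, a count without a share over all genes to set beside it. Levels are CPM, that is, counts scaled to a common library total, and fold changes also include the TMM factors that edgeR uses to align libraries.

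The stage difference was of similar size in both subunits. Of the 35 small-subunit genes 34 were lower in adults, 30 of them by over 2-fold, with a median of -1.29. Of the 51 large-subunit genes 50 were lower in adults, 34 of them by over 2-fold, with a median of -1.19. The 20 genes that were lower in adults but not called past 2-fold included RpS4, RpS15Ab, RpS20 and RpS24 of the small subunit, and RpL3, RpL4, RpL6, RpL7A, RpL13, RpL18, RpL22, RpL23A, RpL24, RpL24-like, RpL34a, RpL35, RpL35A, RpL38 and RpLP0-like of the large. The 15 members on the X chromosome had a median of -1.24 and the 71 on autosomes -1.21. The 29 genes that carry small nucleolar RNA genes within their bounds, which guide the modification of ribosomal RNA, had a median of -1.25, against -1.21 for the other 57.

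RpS21 had the most negative stage difference. RpS21 (FBgn0015521, chr2L:2856070-2857029, plus strand, BDGP6) encodes a small-subunit protein that binds RpSA. It ran from 118 to 540 CPM in adults, with a median of 261, against 423 to 1629 CPM in larvae, with a median of 653. It was lower in adults in 41 of 41 lines although the extreme libraries overlapped, with a log2 fold change of -1.63 ± 0.055 (SE; edgeR quasi-likelihood F test, adjusted p = 8.4e-58). Its partners differed less: RpSA itself, encoded by sta, stood at -1.12 ± 0.060 and RpS2 at -1.20 ± 0.044.

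RpS5a, whose protein lies near the messenger RNA exit of the small subunit, came next. It ran from 472 to 1188 CPM in adults, with a median of 835, against 1495 to 2848 CPM in larvae, with a median of 1969. No adult library reached any larval one, and the log2 fold change was -1.49 ± 0.036 (SE; edgeR, adjusted p = 3.0e-74). The tandem copies RpS14b and RpS14a followed at -1.49 ± 0.066 and -1.49 ± 0.052, then RpL30 at -1.48 ± 0.037, RpL23 at -1.44 ± 0.047 and RpS9 at -1.43 ± 0.044. RpS9 and RpL30 overlap annotated transcripts on the opposite strand, and the strand setting of the counting is not given in the sources used here.

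Genes grouped by their place in the ribosome stayed close to the common value. The stalk, which recruits elongation factors, had RpLP0 at -1.08 ± 0.038, RpLP1 at -1.31 ± 0.044, RpLP2 at -1.36 ± 0.044 and RpL12 at -1.21 ± 0.038. The proteins that bind 5S ribosomal RNA were RpL5, which averaged 2656 CPM in adults and 4719 CPM in larvae (log2 fold change -1.08 ± 0.033), and RpL11, which averaged 812 CPM in adults and 1662 CPM in larvae (-1.29 ± 0.041). These genes all passed the edgeR test, as did each of the genes in the following groups. The genes made as fusions to ubiquitin or a ubiquitin-like protein were RpS27A at -1.31 ± 0.033, RpL40 at -1.11 ± 0.035 and RpS30 at -1.29 ± 0.038. RpS6, the substrate of the S6 kinase downstream of TOR, stood at -1.21 ± 0.044, close to the median of the set. Around the decoding centre and tRNA sites, RpS3, RpS15, RpS23, RpS25, RpS30 and RpL10 spanned -1.14 to -1.37. Along the peptide exit tunnel RpL17 and RpL39 stood at -1.33 ± 0.065 and -1.19 ± 0.041, while RpL4 stood at -0.84 ± 0.068 and was not called past 2-fold.

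RpL3, which lies at the peptidyl transferase centre, RpL4 and RpS24 were the least changed genes outside the paralog pairs. RpL3 ran from 947 to 2742 CPM in adults, with a median of 1681, against 1253 to 3883 CPM in larvae, with a median of 2627. The libraries overlapped widely, yet all 41 lines were lower in adults, at -0.79 ± 0.052. RpS24 stood at -0.90 ± 0.048. RpL3 shares 412 exonic bases with an annotated antisense RNA, so a part of its counts may be uncertain.

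**Figure D2:**
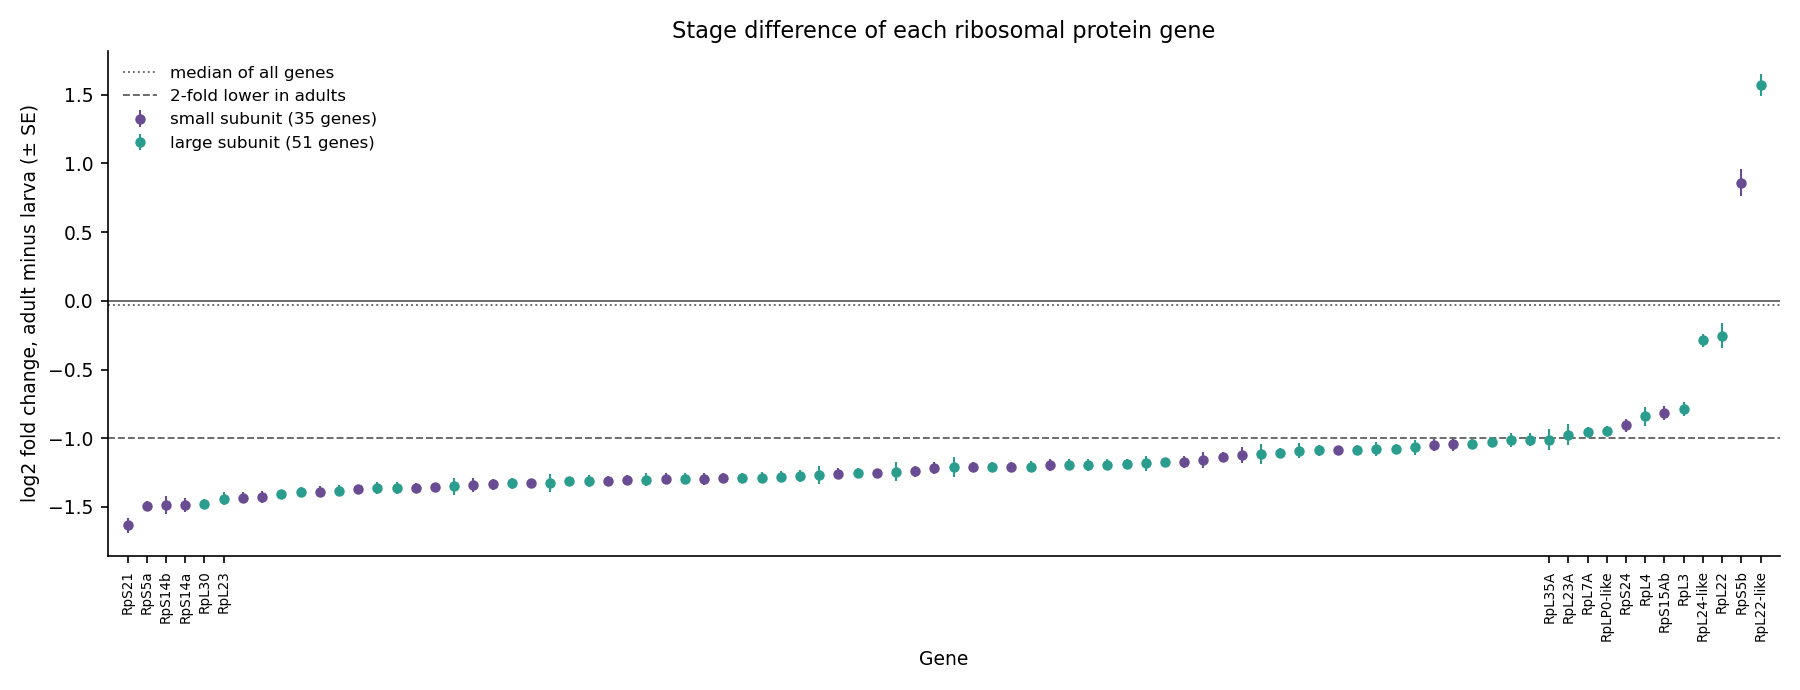
Log2 fold change (adult minus larva, vertical axis, ± SE) of each of the 86 ribosomal protein genes, in order of size along the horizontal axis and coloured by subunit, with names given at both ends. Lines mark 0, the median of all genes at -0.03 and a 2-fold lower level in adults, and RpL22-like at 1.57 and RpS5b at 0.86 are the 2 points above 0.

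Levels were also compared between genes per kilobase of the median annotated transcript length. In adults the 86 genes ran from 23.9 to 3722 CPM per kilobase with a median of 979, and in larvae from 10.1 to 7775 with a median of 1945. The highest levels in adults were those of RpL41, RpL39, RpS3A, RpL10 and RpS27A, of which RpL41 and RpL39 encode the smallest proteins of the ribosome and have very short transcripts. The lowest were those of RpS5b at 23.9, RpLP0-like at 25.6, RpL22-like at 35.5, RpS15Ab at 38.1 and RpL22 at 104 CPM per kilobase. Of these 5 genes 4 are second members of paralog pairs, and the other is the partner of one.

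Of 15 pairs of paralogs listed by name, 7 had both members in the table. For each of the 7, the second gene's share of the pair's counts was averaged over the replicates of a line, and its stage difference was tested over the 41 lines by 100000 sign-flip permutations, adjusted over the 7 pairs. The smallest p these can give is 1e-05. Such shares do not depend on how libraries are scaled. In 6 pairs the share differed between stages, 5 of them towards the second gene in adults.

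RpL22-like moved most in points of share, whereas RpS5b moved more on the log2 ratio of a pair (2.37 for RpS5b, 1.89 for RpL22-like). RpL22-like (FBgn0034837, chr2R:23246610-23247893, minus strand, BDGP6) encodes a variant of the large-subunit protein RpL22 that is enriched in testis. It ran from 18.6 to 67.6 CPM in adults, with a median of 43.4, against 1.53 to 29.1 CPM in larvae, with a median of 11.4. It was higher in adults in 41 of 41 lines, at a log2 fold change of 1.57 ± 0.083 (SE; edgeR, adjusted p = 2.9e-38), and was the 1 ribosomal protein gene called higher past 2-fold.

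RpL22, the canonical partner, differed little between the stages. It ran from 47.2 to 253 CPM in adults, with a median of 104.2, against 42.7 to 316 CPM in larvae, with a median of 104.3. The stages overlapped almost wholly, and 27 of 41 lines were lower in adults, at -0.25 ± 0.091 (SE; edgeR, adjusted p = 0.0073). The call was lost without replicate 2 of each line (adjusted p = 0.084), and with libraries scaled to the table total the sign turned, at 0.0055 (adjusted p = 0.95). RpL22 shares 377 exonic bases with a noncoding RNA on its own strand, so its counts are uncertain. RpL22-like held a mean of 29.5% ± 8.3 of the pair's counts in adults, against 11.3% ± 4.6 in larvae (SD, n = 41 lines). The share was higher in adults in 41 of 41 lines, by 18.2 percentage points (permutation test, adjusted p = 1.7e-05).

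RpS5b, an ovary-enriched copy of RpS5a, was the other gene higher in adults. RpS5b (FBgn0038277, chr3R:14900432-14901563, minus strand, BDGP6) ran from 5.24 to 180 CPM in adults, with a median of 17.6, against 1.76 to 21.7 CPM in larvae, with a median of 8.70. The libraries overlapped, and the log2 fold change was 0.86 ± 0.10 (SE; edgeR, adjusted p = 7.3e-14). Its share of the pair averaged 2.45% ± 1.62 in adults and 0.456% ± 0.139 in larvae (SD, n = 41 lines), higher in adults in 41 of 41 lines (permutation test, adjusted p = 1.7e-05).

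A few adult libraries held most of the spread of RpS5b. It reached 180 CPM in DGRP59 replicate 1, 109 in DGRP380 replicate 1, and 70.5 and 57.7 in replicates 1 and 2 of DGRP158. The other 78 adult libraries ran from 5.24 to 29.3 CPM. These 4 libraries were picked after their values were seen, by the ovary and cell-cycle marker CycB, which stood at 831, 404, 293 and 179 CPM in them and at most at 120 CPM in the other 78. Without them the adult minus larval difference of the RpS5b share was 1.58 percentage points, in place of 1.99, with the same adjusted p of 1.7e-05. Testis markers moved with RpL22-like: across libraries its r with loopin-1 and S-Lap1 was 0.53 and 0.53 in adults (n = 82; rho of 0.46 and 0.47) and 0.72 and 0.73 in larvae (n = 80; rho of 0.64 and 0.64). The adult rho of RpL22-like with CycB was 0.59, and RpS5b had an r of 0.61 and 0.61 with loopin-1 and S-Lap1 in larvae, where its r with CycB was 0.27. In adults RpS5b had an r of 0.83 with CycB (rho of 0.57), and of 0.55 over the 78 libraries outside the 4. Its adult r with loopin-1 and S-Lap1 was 0.31 and 0.25. The testis markers had medians of 1642 and 1950 CPM in adults, against 74.9 and 93.8 CPM in larvae. The part of germ-line content in these paralog shares was not tested.

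In the other 5 pairs the second gene's share moved by 7.88 percentage points or less. RpL24-like, a relative of the yeast assembly factor Rlp24, held 22.2% ± 2.8 of its pair in adults and 14.3% ± 1.9 in larvae (SD, n = 41 lines), higher in adults in all 41 lines (permutation test, adjusted p = 1.7e-05). Its own level differed little, with medians of 123 CPM in adults and 126 CPM in larvae and a log2 fold change of -0.29 ± 0.049 (edgeR, adjusted p = 4.4e-08), and this call was lost when libraries were scaled to the table total (-0.03). RpS15Ab held 4.56% ± 1.69 of the counts of its pair in adults and 3.37% ± 1.46 in larvae, higher in adults in 37 of 41 lines (permutation test, adjusted p = 1.7e-05). RpL34b, the major gene of its pair, held 71.9% ± 3.3 in adults and 74.6% ± 3.5 in larvae, lower in adults in 27 lines (permutation test, adjusted p = 0.00099), a call that was lost without replicate 2 (adjusted p = 0.17). RpLP0-like, a relative of the yeast assembly factor Mrt4, held 2.13% ± 0.30 in adults and 1.97% ± 0.38 in larvae, higher in adults in 26 lines (permutation test, adjusted p = 0.036). That call was lost with the counts of replicates summed (0.052), without the 4 adult libraries high in CycB (0.086) and without replicate 2 (0.30).

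RpS14a and RpS14b lie in tandem on X and encode the same protein. RpS14b held 30.2% ± 2.6 of their counts in adults and 30.2% ± 3.0 in larvae (SD, n = 41 lines), with a mean difference of 0.01 percentage points and an SD between lines of 2.17 (permutation test, p = 0.97). Both genes fell in adults by the same amount, as given above. Reads that match both copies could be split or dropped by the counting, so the ratio of their levels is uncertain, as is that of RpS15Aa and RpS15Ab.

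**Figure D3:**
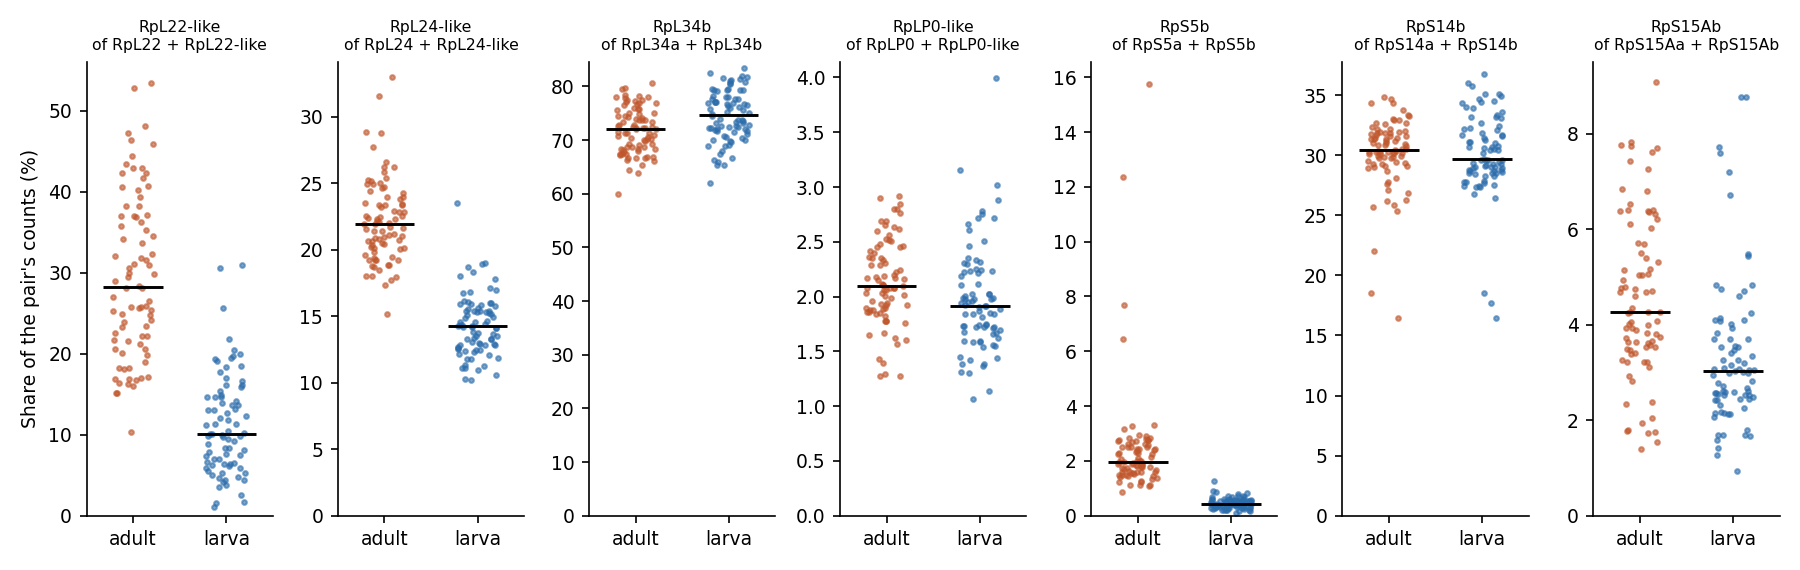
Share (%) of the second gene in the summed counts of each of the 7 paralog pairs, with 1 point per library (82 adult, 80 larval, adults on the left) and a bar at each median. The RpL22-like share has medians of 28.3% in adults and 10.0% in larvae, whereas the RpS14b share has 30.5% in adults and 29.6% in larvae.

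Ribosomal protein genes rose and fell together from library to library. Within each stage every gene's log2 CPM was correlated with the mean of the other 85. The median r was 0.876 over 82 adult libraries and 0.766 over 80 larval libraries, as a description of libraries that share lines. The first principal component of the 86 genes held 63.3% of their variance in adults and 44.1% in larvae. In adults 57 genes had an r above 0.8, led by RpL14 at 0.96, and 15 had an r under 0.5. In larvae 30 had an r above 0.8 and 16 an r under 0.5. Such counts over all genes are not given here, and some genes outside the set had an r as high, as listed below. RpL38 (-0.24 in adults, 0.15 in larvae) and RpL22-like (-0.02 in adults, 0.09 in larvae) stood apart at both stages. RpS3A, RpL15, RpS15Ab, RpLP0-like, RpL10, RpL39 and RpL5 had an r from 0.07 to 0.27 in adults.

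This shared movement was between replicates more than between lines. Heritability here is the share of a single library's variance in log2 CPM that lies between lines, estimated from replicates, and an estimate can fall below 0. The mean log2 CPM of the 86 genes had a heritability of -0.003 in adults and 0.24 in larvae. Replicates of a line differed in that mean by 1.15-fold at the median in both stages, and by up to 1.83-fold in adults and 1.54-fold in larvae.

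Other measures that moved with the mean of the 86 genes were read across libraries, without a p, since libraries of a line are not independent. In adults its r was -0.55 with roX1, a noncoding RNA made in males (rho of -0.55), -0.56 with the neuronal gene Syt1 (rho of -0.49), -0.51 with the neuronal gene elav (rho of -0.39), 0.35 with the midgut protease gene Jon65Aiv and 0.22 with the log2 library total. Other markers of the same kinds were weaker in adults. The r was -0.32 for the male marker msl-2 (rho of -0.24), -0.20 for the neuronal gene nSyb and 0.08 for the midgut gene Jon65Ai. In larvae the r was 0.51 with Jon65Aiv (rho of 0.51), -0.40 with elav (rho of -0.48), -0.26 with roX1 and -0.04 with the log2 library total, and it was -0.31 with nSyb, -0.17 with Syt1 and 0.24 with Jon65Ai. roX1 ran from 317 to 1495 CPM in adults, with a median of 848, against 42.0 to 726 CPM in larvae, with a median of 208. The part of sex ratio and tissue make-up in the shared movement was not tested beyond the covariate fit given below.

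The non-member genes most like the mean of the 86 differed between the stages. In adults they were Nacalpha (r = 0.90), eIF3f1 (0.86), Rack1 (0.86), scu (0.81) and CG13369 (0.79), over 82 libraries. Nacalpha encodes a chaperone subunit that binds chains as they leave the ribosome, eIF3f1 an initiation factor subunit and Rack1 a protein of the small subunit itself. In larvae they were NP15.6 (0.82), ND-B15 (0.79), ND-B12 (0.78), ND-B14.5A (0.78) and ATPsynG (0.77), over 80 libraries, which encode subunits of mitochondrial complex I and of ATP synthase.

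Line differences were tested within each stage over all 41 lines. In adults 17 of the 86 genes (19.8%) passed the edgeR quasi-likelihood F test at an adjusted p under 0.05, where the background was 68.5% of all genes. In larvae 11 passed (12.8%), where the background was 46.6%, and 6 genes passed at both stages, against 2849 of 7414. Median heritability was 0.062 in adults and 0.175 in larvae for the ribosomal protein genes, against 0.390 in adults and 0.286 in larvae for all genes. The SD between lines was 0.062 in adults and 0.115 in larvae on the log2 scale (all genes 0.153 and 0.156), while the SD between replicates was 0.238 and 0.253 (all genes 0.203 and 0.263). Restricted to genes of at least 100 CPM, 13 of 82 ribosomal protein genes passed in adults and 1340 of 1918 of all such genes did, and in larvae 10 of 82 against 943 of 1918.

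**Figure D4:**
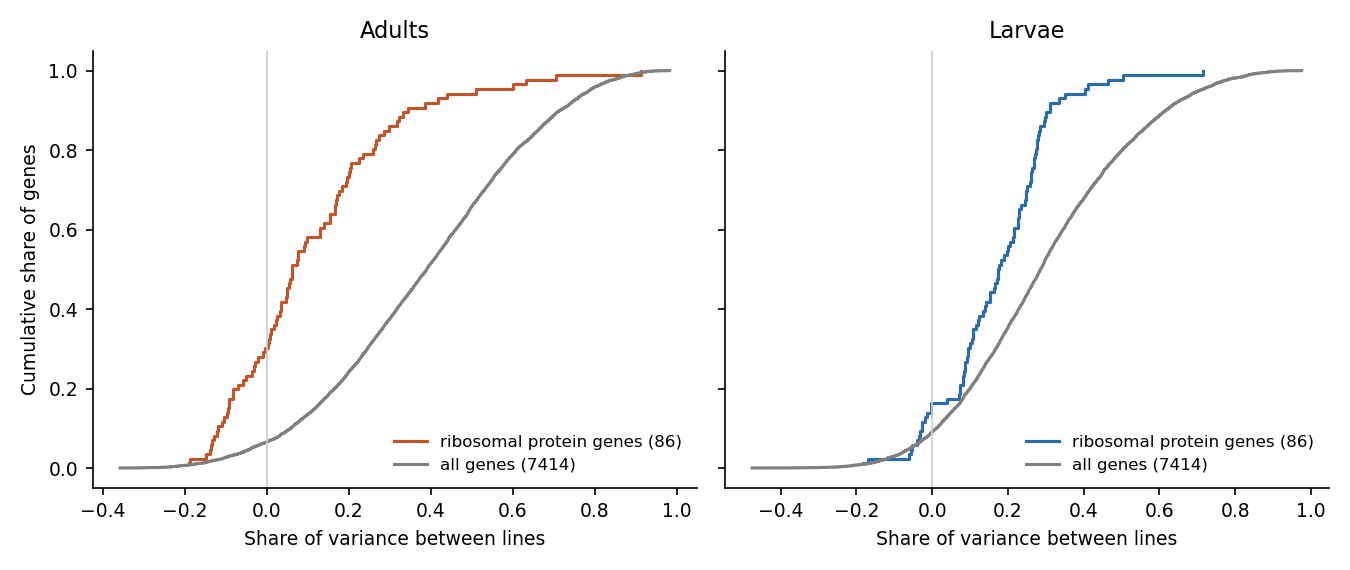
Cumulative share of genes (vertical axis) against the share of variance between lines (horizontal axis), for the 86 ribosomal protein genes and all 7414 genes, in adults (left) and larvae (right). The medians of the ribosomal protein genes and of all genes are 0.062 against 0.390 in adults and 0.175 against 0.286 in larvae.

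The count of genes with line differences depended on what else was in the fit. With roX1 as a covariate, chosen after the data were seen, 53 ribosomal protein genes (61.6%) passed in adults, among them the same 17, and 80.9% of all genes passed. In larvae the same covariate gave 9, against 48.0% of all genes. With the replicate number as a block 35 passed in adults, and 75.5% of all genes. With libraries scaled to the table total 8 passed in adults and 5 in larvae, against 61.5% and 54.4% of all genes. Without the 3 larval libraries of doubtful label 7 passed in larvae, against 47.8% of all genes. With sequencing pool as a covariate 3 passed in larvae, against 30.9% of all genes.

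The 17 genes called in adults were RpL10, RpL11, RpL15, RpL21, RpL22, RpL22-like, RpL29, RpL30, RpL5, RpLP0-like, RpLP2, RpS15Aa, RpS15Ab, RpS27A, RpS29, RpS4 and RpS5b. The 11 called in larvae were RpL10, RpL15, RpL23, RpL29, RpL30, RpL36A, RpLP2, RpS14a, RpS14b, RpS15Ab and RpS21. In only 5 of the 86 genes in adults, and 2 in larvae, did the SD between lines exceed that between replicates, against 34.3% and 20.2% of all genes. At the low end in adults stood RpL38, RpL4, RpL8, RpL26 and RpL32, with heritabilities from -0.189 to -0.134, and in larvae RpL23A, RpL4, RpL22-like, RpL3 and RpL6, from -0.181 to -0.053. RpL23A shares 421 exonic bases with the gene Uhg7 on its own strand and 121 with CG7974 on the opposite strand, so its counts are uncertain.

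RpS15Ab had the highest heritability at both stages. RpS15Ab (FBgn0033555, chr2R:10821676-10822399, plus strand, BDGP6) is the minor copy of RpS15Aa, which lies on X. Its heritability was 0.914 ± 0.025 in adults and 0.715 ± 0.082 in larvae (jackknife SE over 41 lines), with line tests at adjusted p = 1.5e-16 in adults and 6.5e-08 in larvae (edgeR). Over all libraries it ran from 7.84 to 58.1 CPM in adults, with a median of 24.7, against 10.4 to 136 CPM in larvae, with a median of 34.2. Line means spanned 5.53-fold in adults and 7.86-fold in larvae, more than replicates of a line differed.

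Several lines were low for RpS15Ab at both stages. Picked after their values were seen, DGRP45, DGRP427, DGRP441, DGRP491 and DGRP805 had 11.8 and 10.9, 10.3 and 9.87, 10.7 and 12.8, 10.8 and 7.84, and 11.3 and 11.1 CPM in the adult replicates 1 and 2. In larvae the same lines had 13.5 and 20.9, 16.1 and 22.7, 18.3 and 21.0, 22.4 (replicate 1 alone), and 12.7 and 10.4 CPM. DGRP882 and DGRP832 were at the high end of both, with 47.0 and 58.1, and 53.4 and 49.4 CPM in adults, and 117 and 53.7, and 79.8 and 136 CPM in larvae, where the lower DGRP882 value is from a library of doubtful label.

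For RpL10 and RpS4 a single line stood apart, picked out after its values were seen. RpL10 (FBgn0024733, chr3L:23093190-23095471, minus strand, BDGP6), a protein that joins the large subunit in the last steps of its assembly, had 3536 and 3921 CPM in the 2 adult replicates of DGRP217. The other 80 adult libraries ran from 1196 to 2252 CPM, with a median of 1631. In larvae DGRP217 had 6155 and 6533 CPM, and the other lines ran from 2267 to 5218 with a median of 3100. The heritability of RpL10 was 0.633 ± 0.368 in adults and 0.336 ± 0.370 in larvae, and the jackknife SE was large at both stages.

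RpS4 (FBgn0011284, chr3L:13041756-13044234, plus strand, BDGP6), which encodes a small-subunit protein, had 2650 and 2402 CPM in the adult replicates 1 and 2 of DGRP149. The other adult libraries ran from 774 to 1684 CPM, with a median of 1171. In larvae DGRP149 had 4598 and 2848 CPM, against 1025 to 3075 with a median of 2294 in the others, so its larval replicate 2 lay within the range of the other lines. The heritability of RpS4 was 0.601 ± 0.40 in adults and 0.116 ± 0.152 in larvae.

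Other genes named for high heritability were RpL22-like, RpL5, RpL30, RpS21, RpL15 and RpLP2. RpL22-like had a heritability of 0.706 ± 0.078 in adults and -0.060 ± 0.147 in larvae, with line means that spanned 2.62-fold in adults, from DGRP897 to DGRP149. RpL5 had 0.512 ± 0.148 in adults and 0.228 ± 0.170 in larvae. RpL30 (FBgn0086710, chr2L:19008031-19009306, minus strand, BDGP6) had 0.345 ± 0.187 in adults and 0.505 ± 0.130 in larvae. RpL15 had 0.387 ± 0.146 in adults and 0.410 ± 0.15 in larvae, and the stalk gene RpLP2 had 0.299 ± 0.128 in adults and 0.405 ± 0.116 in larvae. RpS21 had 0.463 ± 0.189 in larvae, where DGRP804 stood at 1629 and 1497 CPM and no library of another line passed 1113 CPM. In adults DGRP804 had 540 and 418 CPM for RpS21, and another line reached 460.

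The extreme lines were shared by many genes. In adults DGRP149 was highest for 31 of the 86 genes, DGRP142 for 18 and DGRP832 for 15, while in larvae DGRP235 was highest for 68. The lowest adult line was DGRP181 for 28 genes and DGRP332 for 19, and the lowest larval line was DGRP491, with its single library, for 24. Both larval libraries of DGRP235 correlated slightly more with another line than with their own in the label check (0.193 and 0.159 with its own, 0.218 and 0.198 with the best).

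To set aside the shared movement, each gene was also read relative to the mean of all ribosomal protein genes in its library, itself included. On that scale the median heritability was 0.209 in adults and 0.076 in larvae, and the SD between replicates was 0.137 in adults and 0.179 in larvae. In adults 12 genes exceeded 0.5, among them RpS15Ab (0.866), RpL11 (0.811), RpL30 (0.756), RpS12 (0.686), RpLP2 (0.661), RpS3 (0.612), RpL7A (0.609), RpS15 (0.582), RpL6 (0.564), RpL24-like (0.518) and RpL14 (0.508). In larvae 4 did, among them RpS15Ab (0.711). Relative values given here are a description, and line tests were not run on them.

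A correlation of line means across metamorphosis was called for few genes. The Pearson correlation of larval and adult line means was tested by 100000 permutations of the 41 lines and adjusted over all 7414 genes. It passed for 3 of the 86 genes, all positive, where the background was 17.2% of all genes. The median r was 0.072 for the ribosomal protein genes and 0.194 for all genes, and 55 of the 86 values were above 0, against 6216 of 7414. Without the 3 larval libraries of doubtful label 6 passed, which added RpL29, RpLP2 and RpL39, against 18.7% of all genes. At the median the SD between lines was 0.062 against 0.238 between replicates in adults, and 0.115 against 0.253 in larvae. With line means this imprecise, a low r does not show that lines changed their order.

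RpS15Ab had the highest r, at 0.84 over 41 lines (rho = 0.80; permutation test, adjusted p = 0.00038 for r). Its r was 0.81 when the 2 most extreme larval lines were set aside. DGRP45, DGRP427, DGRP441 and DGRP491 clustered apart from the rest and DGRP805 stood alone, and within the other 36 lines the r was 0.76, as a description, since the clusters were drawn from the same values. The share of RpS15Ab in its pair had an r of 0.82 between the stages.

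RpL30 and RpL41 were the other genes that passed. RpL30 had an r of 0.55 (rho = 0.52; permutation test, adjusted p = 0.0036 for r), 0.52 without the 2 lines farthest out, and 0.47 within its main cluster of 34 lines. The call was lost without replicate 1 (r = 0.42; permutation test, adjusted p = 0.060) and without replicate 2 (r = 0.37; adjusted p = 0.13). DGRP357 was low for RpL30 at both stages, with 238 and 283 CPM in adults and 579 and 742 CPM in larvae. RpL41 had an r of 0.44 (rho = 0.50; permutation test, adjusted p = 0.033 for r), 0.36 without the 2 lines farthest out, and 0.47 within 35 lines. That call was lost with pool differences removed (r = 0.20; permutation test, adjusted p = 0.43) and without replicate 2 (r = 0.28; adjusted p = 0.31).

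RpL10 had the second-highest r, 0.58, but did not pass (rho = 0.17; permutation test, adjusted p = 0.053 for r). Within the 39 lines that clustered together its r was 0.005, as a description. The lines outside were DGRP217, which was highest at both stages, and DGRP142. The larval mean of DGRP142, 11.8 log2 CPM, lay within the 11.4 to 12.1 of the 39 lines. RpL39 had an r of 0.41 (permutation test, adjusted p = 0.052). The lowest values were those of RpL35 (-0.27), RpS24 (-0.27), RpL24-like (-0.23), RpL23A (-0.21) and RpS13 (-0.18), with adjusted p from 0.23 to 0.48 (permutation test). The RpS14b share of its tandem pair had an r of 0.71 between the stages, with DGRP379 lowest at both (17.5% in adults and 17.1% in larvae), while neither gene's level passed.

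**Figure D5:**
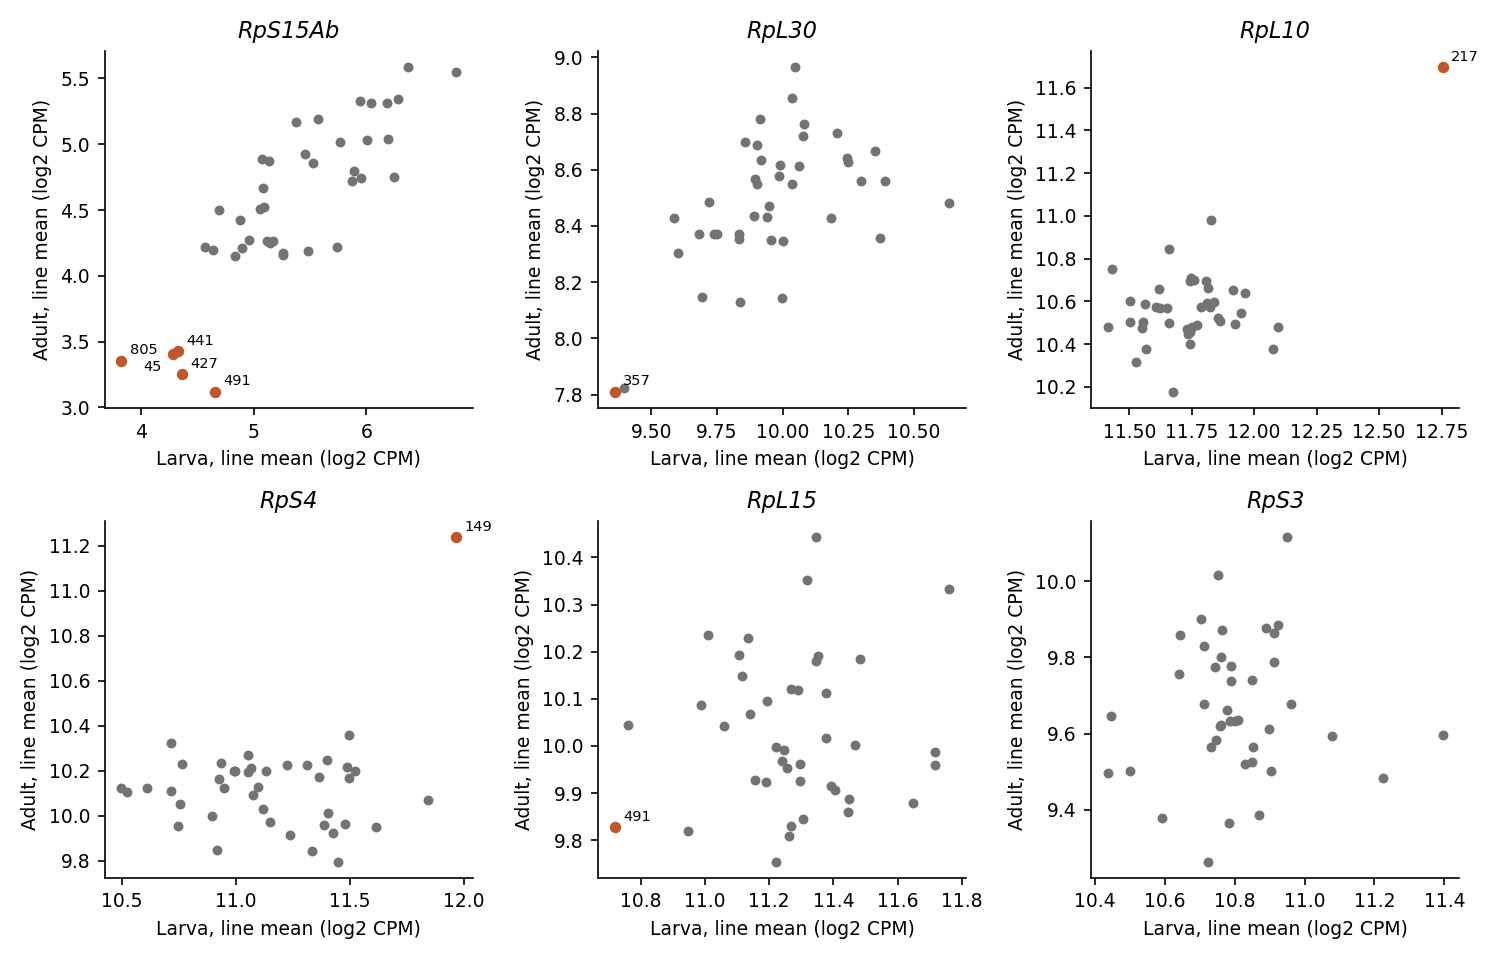
Adult (vertical axis) against larval (horizontal axis) line means in log2 CPM for RpS15Ab, RpL30, RpL10, RpS4, RpL15 and RpS3, with 1 point for each of 41 lines and the lines named in the text marked by number. RpS15Ab rises along the diagonal with r = 0.84, DGRP217 stands alone at the upper right for RpL10, and DGRP149 stands at the top for RpS4.

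Whether the stage difference itself varied between lines was tested by the line by stage interaction. It passed for 4 of the 86 genes (7 at an unadjusted p under 0.05, against 3904 of 7414), where the background was 43.1% of all genes. They were RpL15 (edgeR, adjusted p = 0.017), RpL35 (0.025), RpS20 (0.036) and RpL24-like (0.037), and none of the 4 passed when libraries were scaled to the table total.

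Other genes of ribosome production and translation were read from wider lists by the same stage test. The 71 mitochondrial ribosomal protein genes, which serve the organelle's own translation, had 68 lower and 2 higher in adults (median log2 fold change -0.48), none of them past 2-fold. Of 31 ribosome biogenesis genes 27 were lower in adults and 2 higher, with a median of -0.53. The 5 lower by over 2-fold were NHP2 (-1.53 ± 0.046), Nop60B (-1.51 ± 0.053), nop5 (-1.36 ± 0.040), Nop56 (-1.33 ± 0.042) and Non2 (-1.25 ± 0.041), of which the first 4 encode core proteins of small nucleolar ribonucleoproteins. The higher ones were mahe (1.19 ± 0.052) and Nop17l (0.83 ± 0.033). Of 44 translation factor genes 35 were lower and 8 higher in adults, with a median of -0.45.

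Lists for the making of ribosomal and transfer RNA and for growth control were read in the same way. Of 14 genes of RNA polymerase I and III machinery 11 were lower and 1 higher in adults, with a median of -0.37 and none past 2-fold. Of 19 genes of TOR, insulin and Myc control 16 were higher and 2 lower in adults, with a median of 0.69. Among them Pdk1 (1.61 ± 0.035), Larp4B (1.56 ± 0.047) and InR, the insulin receptor (1.51 ± 0.065), were the highest, while Lst8, a TOR complex subunit (-0.97 ± 0.027), and Rheb, which activates TOR (-0.14 ± 0.028), were lower. Of 7 factors known at promoters of ribosomal protein genes, M1BP, Dref, BEAF-32, Tbp and pzg were lower in adults, and Trf2 (1.28 ± 0.049) and Taf1 (0.51 ± 0.031) were higher. Medians set against all genes can be read beside the -0.03 given above, which moved to 0.22 under scaling to the table total, where the ribosomal protein genes moved to -0.96.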

How the data were processed

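RNA of 41 lines at each of 2 stages was analysed from 1 table of raw counts per gene, as deposited by the authors, with 7414 genes and 164 columns. Per the submitters' processing notes FastQC, Trimmomatic, STAR and the builds BDGP6 and dm6 were used, without versions. The counter, its strand setting and any gene filter are not given in the sources used here. The lowest count was 11. Every column had a sample, so 0 columns lacked one, and the 2 identical larval columns were left out. Groups, lines, replicates and pools came from the labels. Names and positions came from the Ensembl release 115 annotation of BDGP6, where 7349 of the identifiers matched and 65 did not.

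Stage differences were tested in edgeR 4.0.16 (R 4.3.3) with TMM factors, line as a block and the quasi-likelihood F test, fitted on the whole table and adjusted by Benjamini-Hochberg over all of it, with a threshold of 0.05. Changes of over 2-fold were tested with glmTreat. The filter of 1 CPM in at least 41 libraries removed 0 genes. Line differences and the interaction used the same F test. Heritability, correlations of line means (log2 CPM, prior count of 2) and shares of paralog pairs were computed with scipy 1.17.1, numba 0.67.0, pandas 2.3.3 and numpy 2.4.6 under Python 3.11.15. Clusters of lines were taken by single linkage, with a linking distance of 0.15 of the range. Figures were drawn with matplotlib 3.10.9. Alternatives were DESeq2 1.42.0 and its size factors, scaling to the table total, TMM factors without the ribosomal protein genes, other filters, the replicate number or pool as a term, pools as replicates in limma 3.58.1, libraries left out, and other forms of r and of the shares. Those with roX1 or without libraries high in CycB, and the 2-fold test with a replicate block, were added after seeing the data.

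Members named singly were those of paralog pairs, the 8 at each end of the stage difference, the 5 at each end of heritability, cross-stage r and level per length, and the role groups given, and a few items under these rules are not reported here. The members, lists and tests were chosen with earlier results of these data known. The labels call the replicates biological. Scripts were tested on simulated counts.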

Additional observations from a re-analysis of the deposited data

Results flagged for a closer look

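Among the ribosomal protein genes, 4 were picked out because their adult minus larval difference varied between lines by more than the replicates did, in a test of that variation itself (edgeR quasi-likelihood F test of the line by stage interaction, adjusted over 7414 genes). That is 4 of 86 genes, where the background was 43.1% of all genes. For RpL15, a large-subunit gene, the adjusted p was 0.0169, and the log2 difference ran from -1.77 in DGRP703 to -0.72 in DGRP362, lower in adults in 41 of 41 lines. For RpL35 the adjusted p was 0.0248, and the difference ran from -1.94 in DGRP235 to -0.52 in DGRP911, lower in adults in all 41 lines. For RpS20 the adjusted p was 0.0363, with -1.83 in DGRP235 and -0.37 in DGRP832 at the ends, again lower in adults in all 41 lines. For RpL24-like the adjusted p was 0.0373, with -1.13 in DGRP796 and 0.32 in DGRP356 at the ends, and 32 lines were lower and 9 higher in adults. For these 4 genes the direction did not differ between lines except for RpL24-like. Without the 3 larval libraries of doubtful label all 4 passed, and under scaling to the table total none of the 4 did. DGRP235 and DGRP911, named above, had larval libraries that ranked behind another line in the label check.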

How the results depend on the processing

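Of 86 stage directions, RpL22 alone turned, at 0.0055 under scaling to the table total, which moved the median of all genes to 0.22 and the share of all genes lower in adults to 36.3% in place of 47.8%. The 64 genes lower by over 2-fold became 23 under that scaling and 49 to 70 with a replicate left out, while the 84 lower genes were 82 to 84 in all alternatives, pools as replicates included, and 83 to 84 with a replicate left out. The 17 adult line calls became 8 under table-total scaling, 35 with a replicate block and 53 with roX1. Over all genes the shares were 61.55%, 75.49% and 80.94%, in place of 68.45%. The 11 larval line calls became 5 under table-total scaling, 7 without the 3 larval libraries of doubtful label and 3 with pool as a covariate. Here the shares of all genes were 54.42%, 47.8% and 30.86%, in place of 46.57%. The 4 interaction calls became 1 under table-total scaling, which was not among the 4, while 46.83% of all genes passed in place of 43.15%. The 3 cross-stage calls became 6 without the 3 doubtful libraries and 1 to 3 with a replicate left out (RpL30 lost both times). Over all genes the cross-stage share was 17.18%, and 18.75% without the 3 doubtful libraries. It fell to 10.82% without replicate 1 and to 8.592% without replicate 2, so calls were lost across the whole table. The 6 paralog calls became 4 to 6 with a replicate left out. The cause was not tested. Replicate numbers did not pair the stages: deviations of same-numbered libraries had a median r of 0.049 over 39 lines (-0.371 to 0.304, with 21 above 0), and the replicate block left the stage calls at 84 and the interaction calls at 4. Genes under 11 counts in any library, and counting differences between near-identical copies, are beyond this table.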
